A study of Homo sapiens with 6 samples.

Results

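DNA replication fork genes encode the enzymes that copy both strands behind the unwinding helicase. DNA polymerase alpha, with primase, lays down short primers, polymerase epsilon extends the leading strand and polymerase delta the lagging strand. Both of these are held on DNA by PCNA, a ring-shaped clamp that the RFC complex loads. The flap nuclease FEN1 and the ligase LIG1 then trim and join the lagging-strand pieces. TIMELESS and CLSPN travel with the fork, and when it stalls CLSPN brings the kinase CHEK1 to its activator ATR. Transcripts of many of these genes rise as cells enter S phase, largely under transcription factors of the E2F family.

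The 10 genes described here were taken by symbol from a count table of 60564 Ensembl genes, as replicative polymerases (POLA1, POLD1, POLE), clamp and clamp loader (PCNA, RFC3), lagging-strand enzymes (FEN1, LIG1) and fork checkpoint factors (CLSPN, TIMELESS, CHEK1). Each matched a single row and all 10 passed the filter on low counts. They were measured by RNA sequencing in HepG2, an established human hepatoma line with wild-type genotype per the labels. Libraries were made from 3 samples given formononetin, an isoflavone of legumes (72 h, dose labelled 625 with the unit written μm), and from 3 control samples. The control label names DMEM culture medium and no solvent or treatment time. The comparison sets formononetin libraries against control libraries of a liver cancer line. Formononetin, any solvent and the culture time cannot be told apart in it. Nothing in the labels says that replicates were separate cultures, so p-values measure the spread between libraries.

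Libraries held 37465148 to 45682722 counts on named genes with formononetin and 30848848 to 36243606 in control (exact permutation p = 0.1, two-sided, the smallest that 3 against 3 allow). All 9 hepatocyte markers looked at were detected, with a summed level of 39170 to 40300 CPM (counts per 1000000, on scaled library sizes) in formononetin libraries and 47390 to 48760 CPM in control libraries. The hepatocyte sum was mainly APOB. Mean HNF4A was higher with formononetin (251 against 185 CPM) and APOA1 was close (1494 against 1425 CPM), while the other hepatocyte markers were lower. Of 5 fibroblast markers 3 were at 0 in every library, as were the immune markers PTPRC and CD3E. Summed fibroblast markers were at 3.82 to 4.59 CPM in formononetin and 12.9 to 15.1 CPM in control libraries, nearly all from PDGFRB. Summed endothelial markers were at 24.0 to 28.2 CPM and 22.1 to 25.6 CPM, mainly PECAM1, and immune markers at 977 to 1015 CPM and 1201 to 1294 CPM, mainly LYZ, again with formononetin and in control. The part of these lists in the results was not tested.

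All 10 genes were higher in formononetin than in control libraries, by 1.33-fold for POLE to 2.60-fold for CLSPN. Each rise passed the threshold of adjusted p under 0.05 in edgeR's quasi-likelihood test across 22230 genes, where 12.0% of genes were raised, 8.71% lowered and 20.7% changed in all. The 10 genes were chosen with earlier results of these data known, so these shares are a description and no test of the genes as a list. The balance over all genes depended on the scaling, with 2659 raised and 1937 lowered here, 1813 and 2737 under upper quartile scaling, and 3142 and 1562 under library total scaling. Without formononetin replicate 3 the calls numbered 3049 in place of 4596, with 1703 raised, and without control replicate 3 there were 1272 lowered. The median log2 fold change was 0.77 over the 10 genes and -0.01 over all genes tested. In each of the 10, every formononetin library lay above every control library, as it did for 20.8% of tested genes. In bulk RNA, more cells in S phase and more of these transcripts per cell cannot be told apart.

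**Figure D1:**
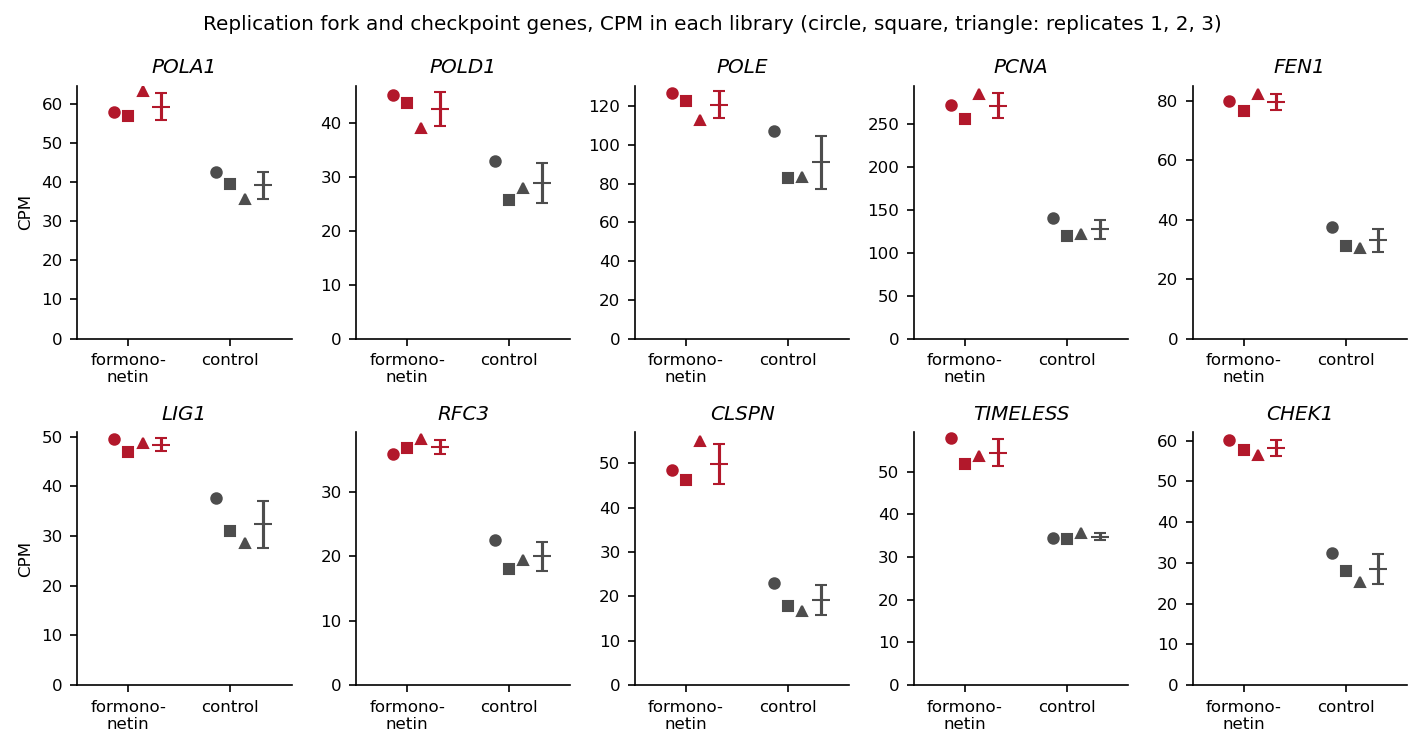
CPM of the 10 genes in each library (circles, squares and triangles are replicates 1, 2 and 3), with mean and SD of 3 libraries beside them and axes from 0. Formononetin libraries lie above control libraries in every panel, with the narrowest gap for POLE (113 against 107 CPM).

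The gene starts of 6 of the 10 carried the letters of an E2F site, which are shown here because the genes act in the same process. Promoters from RefSeq (GRCh38.p14, 250 bases before to 50 after the gene start) were found for all 10 genes and searched on both strands for TTTCGCGC, TTTGGCGC, TTTCCCGC and TTTGGCGG. Among the 27305 RefSeq genes listed, 4.05% had one of these in any of their windows. Windows of 30 bases on the strand of each gene follow, with the match in capitals.
POLA1: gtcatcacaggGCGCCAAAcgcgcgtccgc
POLE: tgggtgggagcGCGCCAAAtttctcccctg
PCNA: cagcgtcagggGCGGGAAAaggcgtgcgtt
LIG1: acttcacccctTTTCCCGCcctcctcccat
RFC3: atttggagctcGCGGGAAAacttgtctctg
CLSPN: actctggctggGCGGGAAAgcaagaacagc
POLA1 and POLE carried TTTGGCGC, and the other four TTTCCCGC. LIG1 had it on the strand of the gene and the others on the opposite strand. The match began 137 bases before the gene start in POLA1, 114 in LIG1, 59 in PCNA, 55 in RFC3, 18 in POLE and 5 in CLSPN. None of the 4 sequences was in the windows of POLD1, FEN1, TIMELESS and CHEK1 (log2 fold changes 0.57, 1.27, 0.65 and 1.03). The 6 genes with a match ran from 0.41 for POLE to 1.38 for CLSPN. Any link between the letters and the rises was not tested. CCAAT, the letters bound by factor NF-Y, was in 6 of the 10 genes and in 39.7% of all genes, and TTTGAA, the letters of the cell cycle element called CHR, in none of the 10 and in 18.2% of all. Matches of letters are a description and not evidence of binding.

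The whole windows of PCNA (chr20:5126573-5126872, minus strand) and CLSPN (chr1:35769929-35770228, minus strand) are given because they combine 1 E2F match with 3 CCAAT matches each. The 8-base runs in capitals are the E2F letters and the 5-base runs CCAAT or its reverse complement.
PCNA: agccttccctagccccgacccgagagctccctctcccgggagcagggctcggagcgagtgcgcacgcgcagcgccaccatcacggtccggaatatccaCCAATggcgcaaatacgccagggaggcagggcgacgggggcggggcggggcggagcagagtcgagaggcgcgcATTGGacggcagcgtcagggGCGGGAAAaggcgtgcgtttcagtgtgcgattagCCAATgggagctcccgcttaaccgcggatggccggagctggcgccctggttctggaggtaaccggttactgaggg
CLSPN: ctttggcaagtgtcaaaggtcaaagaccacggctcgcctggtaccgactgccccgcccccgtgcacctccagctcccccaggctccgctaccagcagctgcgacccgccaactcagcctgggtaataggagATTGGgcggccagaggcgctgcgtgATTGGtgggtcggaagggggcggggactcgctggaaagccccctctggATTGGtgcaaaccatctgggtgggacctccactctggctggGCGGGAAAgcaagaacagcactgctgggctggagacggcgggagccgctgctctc

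The catalytic polymerase subunits were at the low end of the rises. POLA1, the catalytic subunit of polymerase alpha (ENSG00000101868, chromosome X, 24693919 to 24996986, GRCh38), had 58.1, 56.9 and 63.3 CPM in formononetin libraries, against 42.6, 39.6 and 35.7 CPM in control libraries. POLD1, that of polymerase delta (ENSG00000062822, chromosome 19, 50384204 to 50418016), had 45.1, 43.6 and 39.0 CPM in formononetin libraries, against 32.8, 25.7 and 27.8 CPM in control libraries. POLE, that of polymerase epsilon (ENSG00000177084, chromosome 12, 132623753 to 132687365), had 127, 123 and 113 CPM in formononetin libraries, against 107, 82.7 and 83.5 CPM in control libraries. In all 3 every formononetin library lay above every control library, as it did for 20.8% of tested genes. Control replicate 1 was the highest control each time, as it was for 34.6% of tested genes. The log2 fold changes ± standard error were 0.60 ± 0.08 for POLA1, 0.57 ± 0.10 for POLD1 and 0.41 ± 0.11 for POLE, with edgeR adjusted p of 0.00244, 0.00900 and 0.0325. The call of POLE ended with upper quartile scaling (adjusted p = 0.0645) and without any 1 library other than control replicate 1 (adjusted p from 0.0563 to 0.101). Over all its alternatives the adjusted p of POLE ran from 0.00353 to 0.101 and its log2 fold change from 0.33 to 0.54.

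Partner subunits of the polymerases rose unevenly, to be read against the 12.0% raised over all tested genes. All 3 further subunits of polymerase alpha-primase rose, led by POLA2 (0.81 ± 0.13, adjusted p = 0.00577), whose exons overlap another gene model on the same strand. Of the polymerase delta partners only POLD3 was called, at 22.8, 22.0 and 22.2 CPM in formononetin libraries, against 9.87, 9.22 and 10.5 CPM in control libraries (1.18 ± 0.08, adjusted p = 0.000229). POLD2 was not called (0.41 ± 0.14, adjusted p = 0.0850, but 0.0276 in DESeq2 and 0.0387 without formononetin replicate 1), nor was POLD4 (-0.18 ± 0.18). For polymerase epsilon, POLE2 rose by 1.06 ± 0.14 and POLE3, a histone-fold subunit, by 0.68 ± 0.06, while POLE4 had a value of 0.09 ± 0.09 and was not called.

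Ratios of a pair of genes within each library do not depend on library scaling. The log2 ratio of POLE to POLE2 counts was 3.65, 3.74 and 3.52 in formononetin libraries, against 4.29, 4.20 and 4.39 in control libraries. These did not overlap, and POLE per POLE2 was 0.636 times as high with formononetin (exact permutation p = 0.1, two-sided, the smallest possible, adjusted p = 0.3 over 6 ratios). The log2 ratio of CLSPN to CHEK1 was -0.31, -0.32 and -0.04 in formononetin libraries, against -0.49, -0.64 and -0.59 in control libraries, also without overlap (difference 0.35, exact permutation p = 0.1, adjusted p = 0.3). In the other 4 ratios the groups overlapped (POLA1 to POLA2 -0.22, POLD1 to POLD2 0.17, RFC3 to RFC4 0.02 and TIMELESS to TIPIN 0.10, formononetin minus control; exact permutation p of 0.2, 0.5, 0.9 and 0.6). The difference of POLD1 to POLD2 was -0.0042 without formononetin replicate 1, and that of RFC3 to RFC4 was -0.0078 and -0.023 without formononetin replicate 2 or 3. None of the 6 ratios could pass 0.05 at this number of libraries.

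**Figure D2:**
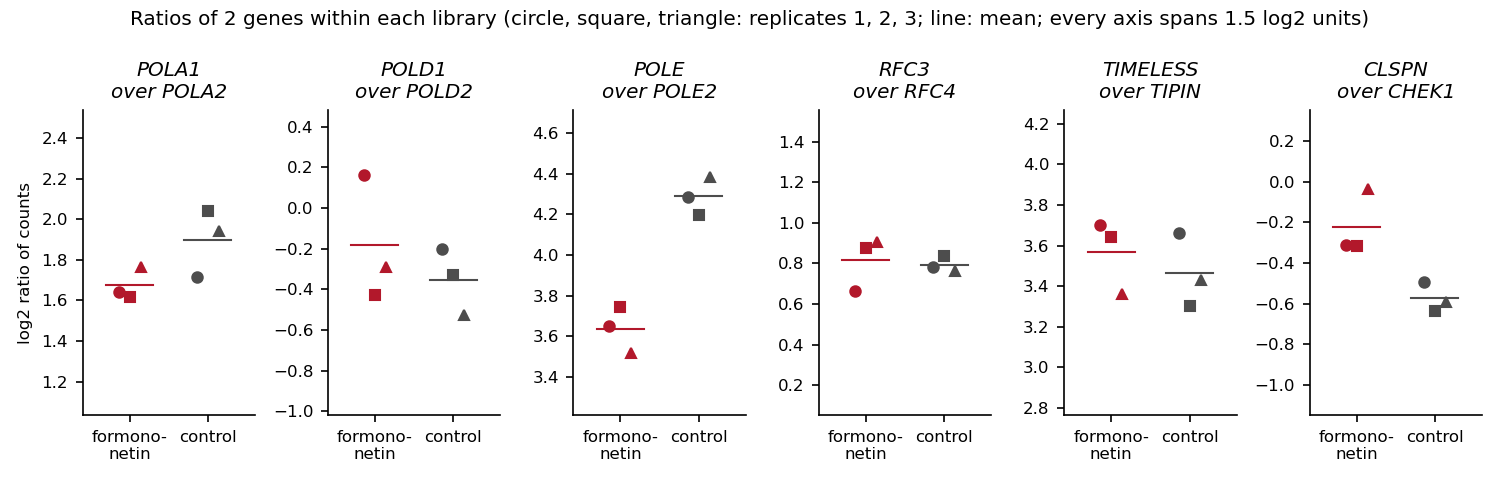
Log2 ratio of the counts of 2 genes in each library, for 6 pairs, with the mean of each group as a line and the same span on every axis. POLE over POLE2 (3.52 to 3.74 with formononetin, 4.20 to 4.39 in control) and CLSPN over CHEK1 separate the groups, and the other 4 overlap.

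Clamp and clamp loader transcripts were among the larger rises. PCNA (ENSG00000132646, chromosome 20, 5114953 to 5126626) had 272, 256 and 285 CPM in formononetin libraries, against 140, 119 and 122 CPM in control libraries. Its log2 fold change was 1.09 ± 0.07 (adjusted p = 0.000214), a 2.13-fold rise, and its lowest formononetin library was 1.83 times its highest control library. Rows named as pseudogenes of PCNA held at most 1 count in any library. RFC3, a small subunit of the clamp loader (ENSG00000133119, chromosome 13, 33818049 to 33966558), had 35.9, 36.8 and 38.2 CPM in formononetin libraries, against 22.5, 18.1 and 19.4 CPM in control libraries (0.89 ± 0.09, adjusted p = 0.000880). The groups stood well apart in both genes, and the spread within formononetin libraries was small, at 5.34% of the mean for PCNA and 3.13% for RFC3.

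Of 8 other clamp loading and unloading genes, 6 rose and none fell, against 12.0% raised and 8.71% lowered over all tested genes. CHTF18 was called near the threshold (edgeR adjusted p = 0.0471). The small subunits RFC2, RFC4 and RFC5 rose by 0.87 ± 0.09, 0.87 ± 0.11 and 0.73 ± 0.10, close to RFC3. RFC1, the large subunit, had 92.8 ± 2.24 CPM with formononetin and 96.1 ± 4.16 CPM in control (SD, n = 3 each) and was not called (-0.05 ± 0.05, edgeR adjusted p = 0.545). DSCC1, of the alternative loader that acts in sister chromatid cohesion, rose most (0.98 ± 0.12), and CHTF8 of that complex was not called (-0.06 ± 0.15). ATAD5, which unloads PCNA, rose by 0.70 ± 0.14. Among 7 genes that modify PCNA or act with it in protein degradation, 4 rose and none fell, to be read against the same shares. PCLAF and USP1 were called near the threshold (edgeR adjusted p = 0.0469 and 0.0443). DTL, a substrate receptor that recognises proteins bound to PCNA, had 41.1, 38.5 and 41.3 CPM in formononetin libraries, against 22.7, 14.3 and 14.7 CPM in control libraries (1.23 ± 0.17, adjusted p = 0.00321). RAD18, which ubiquitinates PCNA, rose by 0.82 ± 0.09.

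The lagging-strand enzymes FEN1 and LIG1 differed in size of rise. FEN1 (ENSG00000168496, chromosome 11, 61792637 to 61797244) had 80.0, 76.7 and 82.2 CPM in formononetin libraries, against 37.6, 31.3 and 30.4 CPM in control libraries (log2 fold change 1.27 ± 0.09, adjusted p = 0.000250). LIG1 (ENSG00000105486, chromosome 19, 48115445 to 48170603) had 49.6, 47.0 and 48.6 CPM in formononetin libraries, against 37.6, 31.0 and 28.5 CPM in control libraries (0.58 ± 0.10, adjusted p = 0.00778). Both had control replicate 1 as the highest control (34.6% of tested genes did). In both, every formononetin library lay above every control library, as for 20.8% of tested genes. FEN1 shares 49 exon bases with FADS2, a fatty acid desaturase gene on the same strand, and 166 with TMEM258 on the opposite strand. With these summed into it the change was 0.69 (adjusted p = 0.00652), and FADS2 itself had 218 CPM with formononetin and 139 CPM in control. Among 7 other lagging-strand genes 2 rose, against 12.0% raised over all tested genes. They were RNASEH2A, the catalytic subunit of the enzyme that removes RNA from DNA (0.78 ± 0.11, adjusted p = 0.00336), and the nuclease-helicase DNA2 (0.71 ± 0.10). RNASEH2A shares 1123 exon bases with another gene model on its strand. LIG3, the ligase of repair and mitochondria, and its partner XRCC1 were not called (both 0.00, with standard errors of 0.07 and 0.08).

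The checkpoint factors included the largest rise. CLSPN, which encodes the adaptor claspin (ENSG00000092853, chromosome 1, 35720218 to 35769967), had 48.5, 46.3 and 55.0 CPM in formononetin libraries, against 23.1, 17.9 and 16.7 CPM in control libraries (1.38 ± 0.13, adjusted p = 0.000686). CHEK1, the effector kinase (ENSG00000149554, chromosome 11, 125625136 to 125676255), had 60.2, 57.7 and 56.5 CPM in formononetin libraries, against 32.5, 27.9 and 25.2 CPM in control libraries (1.03 ± 0.10, adjusted p = 0.000632). TIMELESS, of the fork protection complex (ENSG00000111602, chromosome 12, 56416373 to 56449403), had 58.0, 51.9 and 53.6 CPM in formononetin libraries, against 34.3, 34.3 and 35.7 CPM in control libraries (0.65 ± 0.06, adjusted p = 0.000686). No groups overlapped, with every formononetin library above every control library, as for 20.8% of tested genes. TIMELESS was the only one of the 10 genes in which control replicate 1 was not the highest control. CHEK1 shares 80 exon bases with STT3A on its strand, an abundant gene at 460 CPM with formononetin and 418 CPM in control. The sum of both changed by 0.21 (adjusted p = 0.0224).

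Among 5 further fork protection and coupling genes 4 rose, against 12.0% raised over all tested genes. MMS22L, which acts at stalled forks, rose by 0.89 ± 0.12, and WDHD1, which couples helicase and polymerase alpha, by 0.81 ± 0.11. TIPIN, the partner of TIMELESS, was low at 4.60 ± 0.551 CPM with formononetin and 3.16 ± 0.404 CPM in control (SD, n = 3 each) and was called at adjusted p = 0.0460 in edgeR. That call ended without any 1 library (adjusted p up to 0.146), under upper quartile scaling, without a filter and with the replicate number as a block, and a pseudogene lies over 579 of its exon bases.

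Other checkpoint genes were counted by branch, to be read against the 12.0% raised over all tested genes. None of 4 genes of the 9-1-1 checkpoint clamp and its loader was called in edgeR (median log2 fold change 0.04, with RAD1 at 0.38 ± 0.13 and an adjusted p of 0.0716). In the ATR branch 2 of 5 rose, TOPBP1, an activator of ATR, by 0.52 ± 0.05 (adjusted p = 0.000555) and RHNO1 by 0.48 ± 0.07. ETAA1 of this branch was not called (-0.20 ± 0.12, edgeR adjusted p = 0.298). ATR itself had 43.6 ± 1.01 CPM with formononetin and 39.1 ± 2.91 CPM in control (SD, n = 3 each) and was not called (edgeR adjusted p = 0.155). In the branch of the double-strand break kinase only MRE11 was called (0.25 ± 0.06, adjusted p = 0.0262), a call that ended in 7 of 15 alternatives, with the replicate block (adjusted p = 0.0702) and without any 1 library other than control replicate 1 among them (adjusted p up to 0.0917). CHEK2, the effector kinase of that branch, had a value of 0.33 ± 0.10 (adjusted p = 0.0554).

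Of 5 genes acting on cyclin-dependent kinases below the checkpoint kinases, 3 rose and none fell. Over all tested genes 12.0% were raised and 8.71% lowered. CDC25C was called near the threshold (edgeR adjusted p = 0.0405). CDC25A, a phosphatase that CHEK1 marks for destruction, had 44.1, 42.2 and 44.0 CPM in formononetin libraries, against 20.6, 18.2 and 18.5 CPM in control libraries (1.19 ± 0.07, adjusted p = 0.000153). PKMYT1 rose by 0.72 ± 0.18, while WEE1, the inhibitory kinase of the nucleus, was not called (0.16 ± 0.10).

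The only 2 lowered genes were in the lists of translesion polymerases and topoisomerases. Of 7 translesion polymerase genes MAD2L2 rose (0.46 ± 0.07) and REV3L fell (-0.30 ± 0.09, adjusted p = 0.0461), and of 3 topoisomerase genes TOP2A rose (0.27 ± 0.05) and TOP2B fell (-0.15 ± 0.04, adjusted p = 0.0351). Over all tested genes 12.0% were raised and 8.71% lowered. Both falls depended on the setting. That of REV3L was lost in 8 of 15 alternatives, among them library total scaling, no filter and 5 of 6 sets with 1 library left out (adjusted p up to 0.137), and that of TOP2B in 10 of 15, among them DESeq2, the replicate block and every set with 1 library left out (adjusted p up to 0.115). RPA1, the large subunit of the single-strand binding protein, rose (0.43 ± 0.05). RPA3 (0.54 ± 0.16) and RPA2 (0.37 ± 0.11) had similar values but were not called (edgeR adjusted p = 0.0518 and 0.0575). BLM led 2 raised genes of 6 in fork remodelling (0.98 ± 0.10). Over all 74 other fork and checkpoint genes, all tested, 33 rose, 2 fell and 39 were not called, against 12.0% raised and 8.71% lowered over all tested genes. Their median log2 fold change was 0.30, and that of all tested genes -0.01. In 44 of the 74 every formononetin library lay above every control library, against 20.8% of all tested genes. These lists were also chosen with earlier results of these data known, so the counts are a description.

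**Figure D3:**
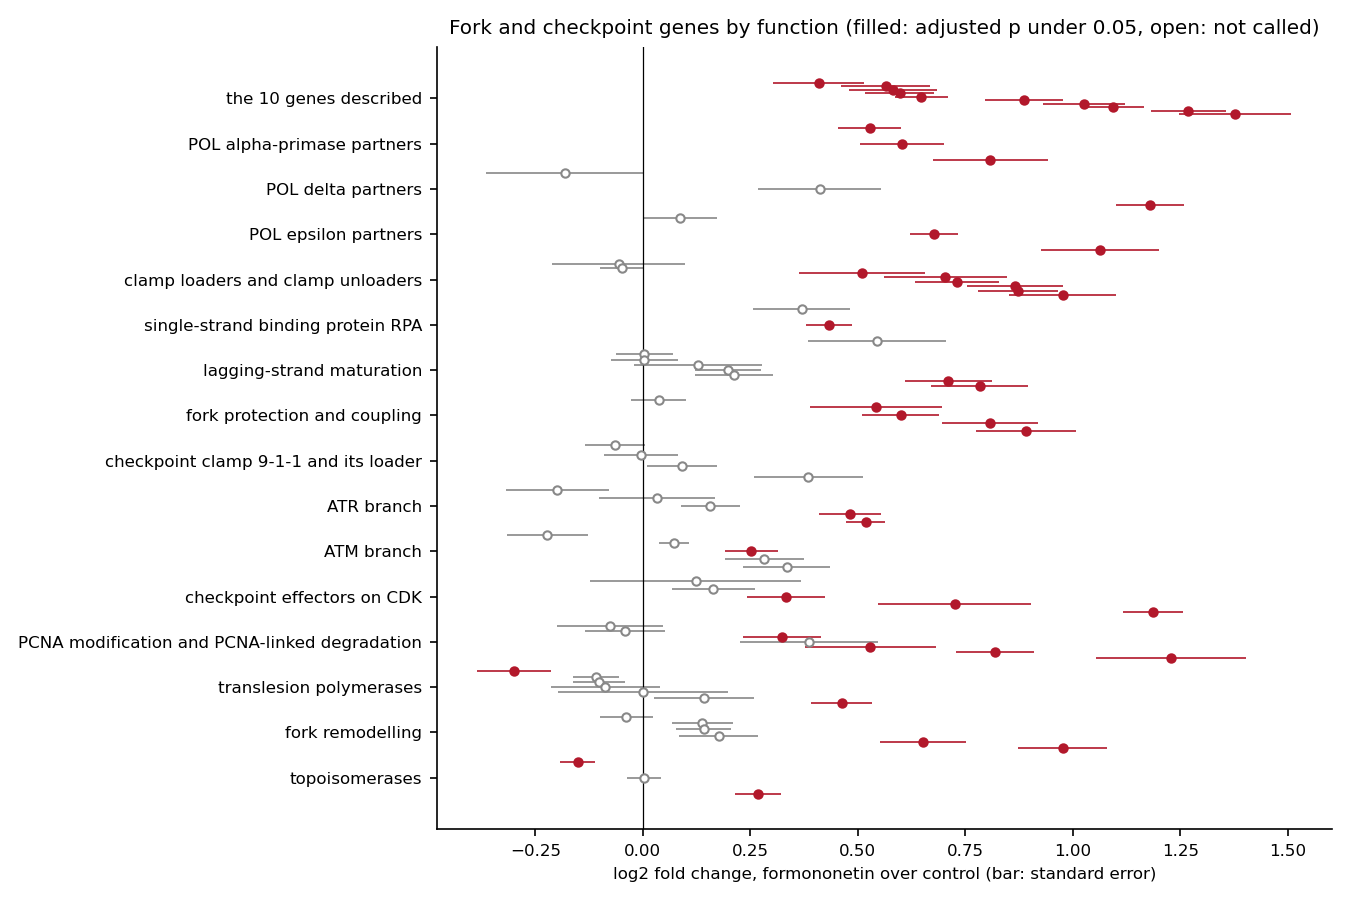
Log2 fold change of formononetin over control with its standard error for the 10 genes (top) and 74 others by function, filled where edgeR adjusted p was under 0.05. The 10 lie between 0.41 and 1.38, all 3 polymerase alpha partners are filled, and no gene of the 9-1-1 list is.

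Per kilobase of exon, merged over all annotated transcripts, PCNA was the most abundant at 184 ± 9.83 CPM per kb with formononetin and 86.4 ± 7.62 CPM per kb in control (SD, n = 3 each). FEN1 followed at 32.1 ± 1.11 and 13.3 ± 1.58 CPM per kb, and RFC3 at 12.9 ± 0.402 and 6.96 ± 0.790 CPM per kb. The other 7 genes lay close together, at 7.28 to 9.38 CPM per kb with formononetin and 3.55 to 6.20 CPM per kb in control. Neighbours in the order of these 7 differed by less than the larger of their SDs, except POLD1 above LIG1 with formononetin and CHEK1 above CLSPN in control. CLSPN was the lowest in control (3.55 ± 0.624) but lay among POLA1, TIMELESS and CHEK1 with formononetin (9.23 ± 0.840 CPM per kb). POLE and LIG1 were the lowest with formononetin, at 7.28 ± 0.426 and 7.36 ± 0.200 CPM per kb. The merged length counts rare exons, so levels of genes with long rare transcripts, such as POLE at 16.609 kb, are understated.

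**Figure D4:**
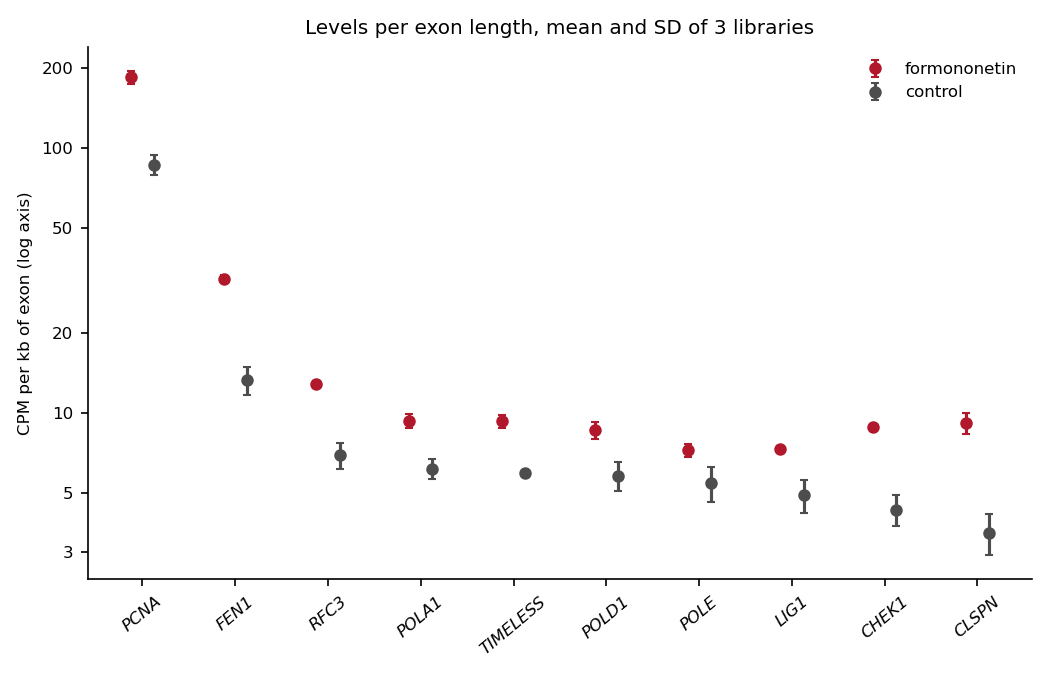
Level of each gene as CPM per kb of exon on a log axis, mean and SD of 3 libraries, with formononetin left of control for each gene and genes ordered by the control level. PCNA (184 and 86.4) and FEN1 (32.1 and 13.3) stand above the other genes, and CLSPN shows the widest step between the groups.

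Within groups, control replicate 1 showed a shift shared by most of the 10 genes, while the order of formononetin libraries varied by gene. Their summed level was 834, 796 and 834 CPM in formononetin libraries, against 510, 428 and 425 CPM in control libraries. Control replicate 1 was the highest control in 9 of the 10 genes, in 37 of the 74 other fork and checkpoint genes and in 34.6% of all genes tested. It was also the library with the fewest counts, and the part of depth in this was not tested. Without it all 10 were called and their median log2 fold change was 0.84, and without any 1 other library the median was 0.73 to 0.79. Among formononetin libraries, replicate 2 was the lowest in 6 of the 10 genes and the highest in none. Replicate 1 was the highest in 5 and the lowest in 1, and replicate 3 the highest in 5 and the lowest in 3. The coefficient of variation was 2.71 to 9.10% with formononetin and 2.34 to 17.6% in control, and was larger in control for every gene except TIMELESS.

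**Figure D5:**
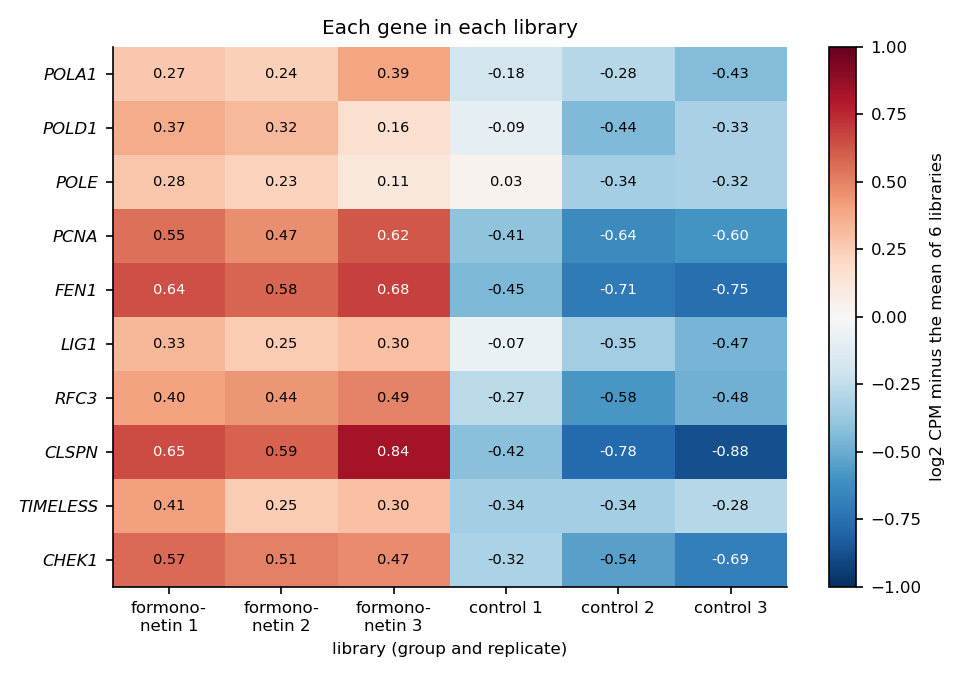
Log2 CPM of each gene in each library after subtracting its mean over the 6 libraries, from blue (low) to red (high). All formononetin values are above 0, and the palest control column is replicate 1, where POLE is at 0.03.

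The nearest profiles among the 10309 genes whose log2 CPM averaged at least 3 were those of GSTO1, MYOM3 and RFLNB, measured as root mean square distance between log2 CPM centred on the mean of 6 libraries and the mean profile of the 10 genes (0.04, 0.04 and 0.05 on the log2 scale). GSTO1, a glutathione transferase gene of the omega class, had 76.5, 71.8 and 74.5 CPM in formononetin libraries, against 45.4, 41.1 and 39.5 CPM in control libraries. RBL1 and MCM5 came next at ranks 4 and 5, with distances of 0.047 and 0.048, close to RFLNB at 0.046. RFC3 was the nearest of the 10 to their own mean (0.05, rank 8) and CLSPN the farthest (0.28, rank 1513).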

How the data were processed

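Per the labels' protocols, a stranded mRNA kit was used on 500 ng of RNA. Raw counts per gene were deposited by the authors as whole numbers. The submitters' processing notes name GRCh38, STAR 2.5.3a and StringTie 1.3.1c, while no source used here gives the counter, strand setting or annotation. Of 62729 rows, 2165 name no gene (3.82 to 5.62% of counts per library) and were left out. Symbols matched 60295 of 60564 identifiers. Coordinates and exon lengths are from GENCODE 29 (GRCh38).

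Genes passing filterByExpr (22230) were scaled by TMM and tested with edgeR 4.0.16 in R 4.3.3 (glmQLFit and glmQLFTest, group as the only term, 3 formononetin against 3 control libraries, two-sided, Benjamini-Hochberg over all genes, threshold 0.05). Standard errors were derived from each gene's log2 fold change and F statistic (absolute change over root F). Counts were also simulated at the trended dispersion, with changes planted in a small part of 21766 genes, at a mean CPM above 1. There the test called 41 of 50 genes with a true log2 change of 1, 36 of 50 at -1 and 18 of 50 at 0.5. It called 7 of 21566 unchanged genes. In the data 20.7% of genes were called, a far larger share than was planted, so these rates do not carry over. Genes not called are not shown to be unchanged. Ratios used counts plus 0.5. Replicates of each group differed beyond sampling noise (chi-square over its degrees of freedom 13.5 to 34.6), so all were kept. Correlations of the deviations of same-numbered libraries were -0.02 to 0.01, so the numbers were not taken as pairs.

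The genes and lists were chosen with earlier results of these data known. Named by rule were the 10 genes, the largest called rise and fall of each list at a mean log2 CPM of 2 or more, both genes of each ratio and the 3 nearest profiles. PRIM and RFC partners, ATR, CHEK2 and other listed genes outside this rule, and also RBL1 and MCM5, were chosen after their values were seen. Alternatives were DESeq2 1.42.0, voom of limma 3.58.1, other scalings and filters, the replicate block, overlapping genes summed, rows without a name kept, and each library left out. Protein motifs planned at the start were not analysed here. Figures used matplotlib 3.10.9.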

Additional observations from a re-analysis of the deposited data

How the results depend on the processing

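The 10 genes gave 160 values under 16 alternatives each: 154 kept direction and call, 6 lost the call (all POLE) and none reversed. The number raised was 9 or 10 and the median log2 fold change 0.62 to 0.84, lowest with overlapping genes summed. FEN1 and CHEK1 moved most there, to 0.69 and 0.21, because abundant neighbours were added. Their summed rows were mainly FADS2 and STT3A, so the calls kept there say little of FEN1 and CHEK1. POLA1, POLE, PCNA, RFC3 and TIMELESS had no overlapping gene, so this setting could hardly move them. Over the 74 other genes 26 to 38 rose. The count lowered there, 2, was 1 with DESeq2 or unnamed rows kept, 0 with library total scaling or no filter, 3 with upper quartile scaling and 0 to 1 with a library left out. Over all genes, calls numbered 3049 to 3667 with a library left out, against 4596, with 1703 to 2189 raised and 1272 to 1478 lowered. Upper quartile scaling called 1813 raised and 2737 lowered genes, and library total scaling 3142 raised and 1562 lowered. The cause of these moves was not tested. With a library left out the ratio difference was -0.0042 to 0.29 for POLD1 over POLD2 and -0.023 to 0.097 for RFC3 over RFC4, changing sign in each. With the replicate number as a block 3283 genes were called, all 10 genes stayed raised (median 0.77), and 26 of the 74 rose and 1 fell. The 10 genes had 566 or more counts in each library, and TIPIN 82 to 236; the part of depth in the results was not tested.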
